A study of Homo sapiens with 5 samples.

Results

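The genes described here are 10 listed members of the cystatin and cathepsin system, out of 33538 genes counted in the series: 4 inhibitors (CST6, CSTA, CSTB and CST3) and 6 lysosomal proteases (LGMN, CTSB, CTSD, CTSL, CTSV and CTSC). They were chosen by name, with earlier results of these data known, and all 10 were found in each of the 5 count matrices. Among them, CST6 belongs to a signature that the study chose on these same samples. The series measured single-cell RNA (10x Genomics Chromium, which counts unique molecular identifiers, UMIs, at the 3′ end of transcripts) in KYSE30-Luc-GFP, a human oesophageal squamous cell carcinoma line that carries luciferase and green fluorescent protein. One library held the parental line in culture, and the others held GFP-sorted cells from lungs of NOD SCID mice, immunodeficient animals a few weeks old at injection, taken 6 h and 48 h, and then 2 and 4 months, after a tail-vein injection. All 5 libraries share the same line and both reporters, and no drug or genetic change separates them.

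There was 1 library per timepoint. The early libraries and the 2-month library pooled several mice, and the 4-month library came from a single mouse, so mice cannot be told apart within a pool and time cannot be told apart from library. No test between timepoints was therefore possible, and intervals printed here are 95% intervals for counting error only. A cell was kept with 200 to 8000 genes, 1000 UMIs or more and no more than 15% of its UMIs from mitochondrial genes, which left 19986 of 26712 barcodes: 9059 parental cells, 1957 and 1149 cells at 6 h and 48 h, and 3322 and 4499 cells at 2 and 4 months, with median depths from 12979 to 39076 UMIs per cell. Between 1 and 62 cell barcodes were shared by any pair of libraries, at most 1.84% of the smaller library.

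The libraries differed in the classes of cell they held, and this touches each comparison by time. Cells were called signature-positive where they had a UMI in at least 3 of C19orf33, S100A14, RHOD, CD44 and TM4SF1, and signature-free where they had none, these genes being part of a metastasis-initiating signature that the study chose on these same samples, with CST6 as another of its genes. Signature-positive cells made up 14.2% of the parental culture, 95.9% and 94.7% of the cells at 6 h and 48 h, and 80.9% and 97.4% at 2 and 4 months. The 7421 parental signature-free cells carried KRT14 at 0.0241 CPM, KRT6A at 0.0483 CPM and KRT18 at 223 CPM, where CPM is UMIs per 1000000 UMIs of the group of cells. In parental signature-positive cells these keratins stood at 0.192, 36.1 and 5620 CPM. KRT14 was thus nearly absent from both classes, and KRT18 was also lower in the signature-free cells. So were TP63 (0.0422 against 16.9 CPM) and SFN (0.899 against 186 CPM). KRT5 (0 against 0.0320 CPM) and KRT17 (0.229 against 1.92 CPM) were low in both classes. By KRT14, KRT6A, KRT5, KRT17 and TP63, leaving KRT18 aside, the squamous label therefore holds only in part for the culture. Summed over 10 epithelial markers the level was 1644 CPM in the parental library and 12940 to 22926 CPM in the lung libraries. Of the cells kept at 48 h, 35 were signature-free and held COL1A1 at 3999 CPM, while the summed fibroblast markers of the whole 48 h library stood at 13.6 CPM and the leukocyte markers at 2.63 to 46.4 CPM over the 5 libraries.

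Cystatins are tight-binding reversible inhibitors of papain-like cysteine proteases, and they block the active site with a wedge built in part by a loop of the form QxVxG. CSTA and CSTB are stefins, which lack a signal peptide and act inside the cell. CST3 (cystatin C) and CST6 (cystatin E/M) are secreted, and they also bind the asparaginyl endopeptidase legumain (LGMN) through a separate surface that stefins do not have. In stratified squamous epithelium CST6 and CSTA are best known from cornification, where CST6 restrains legumain, CTSL and CTSV, and loss of CST6 or CSTA disturbs the skin barrier. On the protease side CTSB and CTSL are broad lysosomal endopeptidases, CTSV is a close paralog of CTSL with a narrow tissue range, and CTSC (dipeptidyl peptidase I) activates granule serine proteases. CTSD is an aspartic protease, so it is not a target of cystatins.

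The paralogs were compared by sequence, since a shared stretch could split reads between them. In the GRCh38 annotation of GENCODE, CTSL lies at chr9:87724051-87731469 on the plus strand and CTSV at chr9:97029677-97156556 on the minus strand. Over the whole coding sequence CTSL and CTSV shared 83.3% of aligned bases and 17 words of 31 bases. In the last 300 bases of the transcripts, where 3′ UMIs are counted, identity was 53.0% and no 31-base word was shared. The pairs CSTA with CSTB (60.4% coding identity) and CST6 with CST3 (59.1%) shared no such word.

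CST6 was highest in the early lung libraries. Its level was 60.8 CPM (59.7 to 61.8) in the parental library, 423 CPM (416 to 430) at 6 h and 480 CPM (474 to 487) at 48 h, then 52.0 CPM (50.5 to 53.6) at 2 months and 115 CPM (113 to 117) at 4 months. The order was therefore 48 h, 6 h, 4 months, parental and 2 months, with a span of 9.23 times from lowest to highest, and no neighbouring intervals overlapped. In parental signature-positive cells the CST6 level was 396 CPM, against 0.332 CPM in parental signature-free cells, so the 6 h level was 1.07 times (1.04 to 1.10) that of the signature-positive part of the culture. The study chose CST6 and the genes that define these classes by the same rule, partly on this culture. The difference in CST6 between the 2 parental classes is therefore not independent of that choice.

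**Figure D1:**
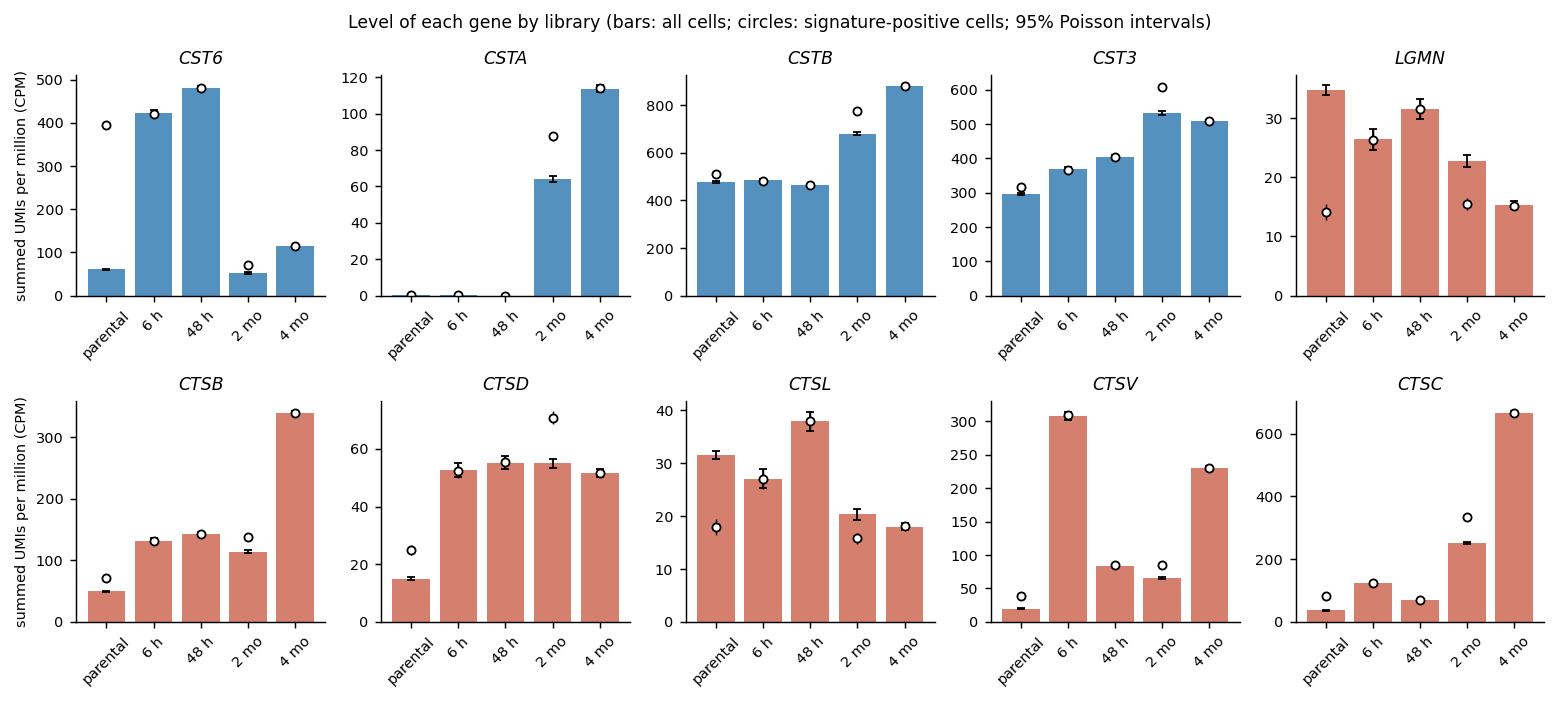
Level of each of the 10 genes as summed CPM (vertical axes, each from 0 with its own scale) in the 5 libraries, parental to 4 months; bars are all cells kept, circles are signature-positive cells, and lines are 95% Poisson intervals for counting error. CST6 stood at 423 and 480 CPM at 6 h and 48 h against 52.0 CPM at 2 months, while CSTA was near 0 until it stood at 64.0 and 114 CPM at 2 and 4 months.

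The share of cells with a CST6 UMI was 14.4% in the parental library (1309 of 9059), 89.4% at 6 h with 89.3% at 48 h, then 34.7% at 2 months and 43.9% at 4 months. In parental signature-free cells, which serve as the background, it was 0.728% (54 of 7421 cells; median depth 22763 UMIs). Since such shares grow with depth, each cell was also thinned to 1000 UMIs, which gave 4.43%, 35.4%, 33.9%, 5.72% and 8.49% in the same order, against 0.0674% in the background. The early lung libraries thus stood above the others at equal depth too. The study picked CST6 in part for its detection at 6 h, so the high share at 6 h is not independent of that choice. In bulk sums like these, fewer cells with a transcript and less transcript per cell cannot be told apart, so the distribution over cells is given next.

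Among cells with at least 10000 UMIs, the top 10% of cells by CST6 level held 27.6% of the summed CST6 level at 6 h and 32.2% at 48 h, and the median cell stood at 333 CPM and 361 CPM. In the late libraries that top 10% held 72.5% at 2 months and 76.5% at 4 months, and the median cell had no CST6 UMI. The parental figure was 89.2%. CST6 was therefore spread over most cells early and held by a minority late, although the 2-month and parental sums were close to each other. Of all signature-positive cells kept, 1240 of 1290 in the culture had a CST6 UMI. In the late libraries 1541 of 2686 at 2 months and 2418 of 4383 at 4 months had none. The culture figure is not independent of the study's joint choice of CST6 and the class genes.

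CSTA, the stefin of keratinocytes, followed another course. It had 19 UMIs in the parental library (0.0927 CPM), 5 at 6 h (0.154 CPM) and 2 at 48 h (0.0427 CPM), then 5174 at 2 months (64.0 CPM, 62.2 to 65.7) and 14270 at 4 months (114 CPM, 112 to 116). The 3 low libraries could not be ordered, because the intervals of parental and 6 h, and of parental and 48 h, overlapped. Cells with a CSTA UMI made up 43.9% at 2 months and 69.3% at 4 months, compared with 0.210%, 0.255% and 0.174% in the other libraries and a background of 0.175% in parental signature-free cells. Within the 2-month library CSTA was at 87.5 CPM in the 2686 signature-positive cells and at 0.0545 CPM (1 UMI) in the 499 signature-free cells, whose median depth was the greater (37324 against 19544.5 UMIs).

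CSTB and CST3 were the abundant and steady inhibitors. CSTB stood at 478 CPM in the parental library, 484 CPM at 6 h and 463 CPM at 48 h, then 680 CPM at 2 months and 879 CPM at 4 months, and parental and 6 h were the only neighbours whose intervals overlapped. CST3 stood at 297, 369, 404, 532 and 509 CPM in the same order. Each spanned less than 2-fold from lowest to highest library (1.90 times for CSTB, 1.79 times for CST3), whereas CSTA had hardly any UMIs in 3 of the libraries. In the 2-month signature-free cells CSTB (419 CPM) and CST3 (327 CPM) were near their parental signature-free levels (472 and 294 CPM).

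Among the proteases CTSC had the widest range. Its level was 36.8 CPM (36.01 to 37.7) in the parental library, 123 CPM (120 to 127) at 6 h and 70.2 CPM (67.9 to 72.7) at 48 h, then 253 CPM (249 to 256) at 2 months and 666 CPM (662 to 671) at 4 months. Over all cells the highest library exceeded the lowest 18.1 times. In parental signature-positive cells CTSC was at 82.3 CPM, which was above its 48 h level. At 4 months the top 10% of cells by CTSC level held 42.5% of its level, and the median cell of at least 10000 UMIs stood at 365 CPM.

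CTSV, the paralog of CTSL, had its maximum at 6 h. It was at 19.7 CPM (19.1 to 20.3) in the parental library, 308 CPM (302 to 314) at 6 h and 84.3 CPM (81.7 to 87.0) at 48 h, then 65.8 CPM (64.0 to 67.6) at 2 months and 230 CPM (228 to 233) at 4 months. The 5 levels were all separated beyond their counting intervals, over a span of 15.6 times. CTSL itself moved over 2.10 times only, and stood at 31.6, 27.1, 37.9, 20.3 and 18.02 CPM in the same order.

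CTSB was at 49.5 CPM in the parental library, 132 CPM at 6 h and 143 CPM at 48 h, then 114 CPM at 2 months and 339 CPM at 4 months. CTSD was at 15.04 CPM in the parental library and between 51.6 and 55.2 CPM in the 4 lung libraries, which were not separated from their neighbours by their intervals. Over all cells LGMN went the other way, with 34.8 CPM in the parental library, 26.4 CPM at 6 h and 31.5 CPM at 48 h, then 22.7 CPM at 2 months and 15.3 CPM at 4 months. LGMN and CTSL were the only members that were lower in signature-positive than in signature-free parental cells (14.1 against 38.5 CPM, and 17.9 against 34.1 CPM). Against the 14.1 CPM of the signature-positive culture cells, LGMN was not lower in any lung library.

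The step from the culture to the lung at 6 h was read with 1 CPM added to each level, among genes at 5 CPM or more in either library, and a gene was called past 2-fold. Of 9 members tested, 5 were called higher at 6 h and 0 lower, where 17.2% of all 10852 genes tested were called higher and 27.8% lower. Those called were CST6 (6.96 times, 6.80 to 7.13), CTSV (15.6 times, 15.05 to 16.2), CTSD (3.50 times), CTSC (3.35 times) and CTSB (2.66 times). The study chose its signature genes, CST6 among them, in part by detection at 6 h and a low share of other parental cells. The call of CST6 is thus not independent of that choice. Of the 6 proteases alone, 4 were called higher and 0 lower. CSTB (1.01 times), CST3 (1.24 times), CTSL (0.858 times) and LGMN (0.760 times) stayed within 2-fold, and CSTA was below the minimum.

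Set against the 1290 signature-positive parental cells instead, 2 of 9 members were called higher at 6 h and 0 lower, beside 10.6% of all genes called higher and 12.1% lower. CTSV was 7.80 times (7.35 to 8.28) higher, at 308 against 39.5 CPM, and CTSD was 2.11 times higher, at 52.6 against 24.9 CPM. The calls of CST6 (1.07 times), CTSC (1.499 times) and CTSB (1.84 times) were thus made against the mixed culture and not against its signature-positive cells. LGMN (1.88 times, 1.67 to 2.11) and CTSL (1.51 times) were lower at 6 h than in the mixed culture but higher than in its signature-positive cells, within 2-fold. Under the addition of 5 CPM, in cells of 10000 to 40000 UMIs, or at a 3-fold limit, 1 call was left.

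From 6 h to 48 h, 0 members of 9 tested were called higher and 1 was called lower, beside 3.24% and 1.42% of all genes. The 1 gene was CTSV, at 0.274 times (0.264 to 0.284) its 6 h level. Next to it CTSC was at 0.569 times and CTSL at 1.40 times, both within 2-fold, and CST6 at 48 h was close to 6 h (480 against 423 CPM).

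From 48 h to 2 months, 2 of 10 members were called higher and 1 lower, beside 12.2% of all genes called higher and 13% lower. CST6 was lower, at 0.108 times (0.105 to 0.112) its 48 h level. CTSC was 3.60 times higher, and CSTA went from 2 to 5174 UMIs, a ratio of 1496 (414 to 12359) whose width comes from the 2 UMIs. Over all cells CSTB (1.47 times), CST3 (1.32 times) and CTSL (0.536 times) stayed within 2-fold. Because 15.02% of the 2-month cells were signature-free, the signature-positive cells alone are given too, and they held CST6 at 71.3, CSTA at 87.5 and CTSC at 335 CPM. Among them CTSL was at 18.9 CPM in CST6-positive and 13.0 CPM in CST6-free cells, against 37.9 CPM at 48 h. Read on signature-positive cells, CTSL at 2 months was thus past 2-fold lower.

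From 2 to 4 months, 4 of 10 members were called higher and 0 lower, beside 3.03% of all genes called higher and 9.38% lower. They were CTSV (3.50 times), CTSB (2.97 times), CTSC (2.64 times) and CST6 (2.21 times), so 3 of the 4 were proteases. CSTA (1.78 times), CSTB (1.29 times), CST3 (0.956 times) and LGMN (0.673 times) stayed within 2-fold. At a 3-fold limit 1 call was left, that of CTSV. In the 2-month signature-positive cells CTSB was at 138 CPM, CTSC at 335 CPM, CTSV at 84.6 CPM and CST6 at 71.3 CPM. The 4-month levels were 339, 666, 230 and 115 CPM. Set against those signature-positive cells, CTSB and CTSV were past 2-fold, CTSC lay just inside the limit and CST6 was within it.

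Summed over the 4 inhibitors, the level was 835 CPM in the parental library, 1275 CPM at 6 h and 1347 CPM at 48 h, then 1328 CPM at 2 months and 1617 CPM at 4 months. Summed over the 6 proteases it was 187, 669, 422, 530 and 1320 CPM. UMIs mark molecules at the 3′ end, so these levels were not divided by gene length. There were 0.224 protease UMIs (0.222 to 0.227) per inhibitor UMI in the parental library, 0.524 (0.516 to 0.533) at 6 h with 0.314 (0.309 to 0.319) at 48 h, then 0.399 (0.395 to 0.404) at 2 months and 0.817 (0.812 to 0.822) at 4 months. The parental library was thus the lowest and the 4-month library the highest, and the order was the same in signature-positive cells (0.205, 0.527, 0.313, 0.428 and 0.817).

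**Figure D2:**
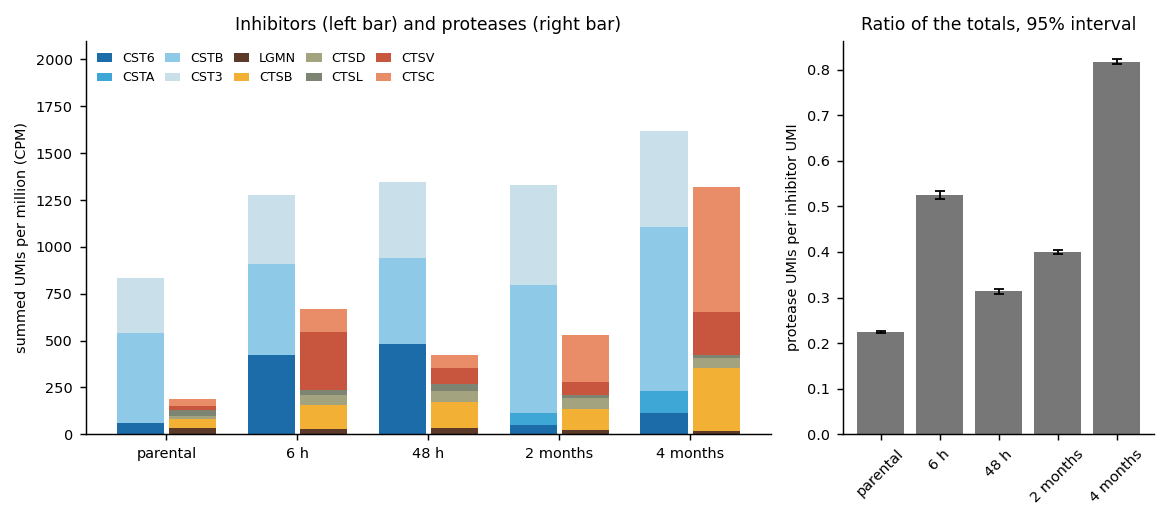
Left, stacked levels (CPM, from 0) of the 4 inhibitors (left bar of each pair) and the 6 proteases (right bar) in the 5 libraries; right, protease UMIs per inhibitor UMI with 95% intervals for counting error. CST6 made up 33.2% and 35.7% of the inhibitor bar at 6 h and 48 h, and the ratio was highest at 4 months, at 0.817.

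The make-up of both totals differed between the libraries over all cells. CST6 held 7.27% of inhibitor UMIs in the parental library, 33.2% at 6 h with 35.7% at 48 h, then 3.92% at 2 months and 7.13% at 4 months, and without it the inhibitor sum was 775, 852, 867, 1276 and 1501 CPM. In parental signature-positive cells the inhibitor sum was 1224 CPM, and 828 CPM without CST6. Both were close to the sums at 6 h, so the low parental share of CST6 holds for the mixed culture only. CSTB made up the largest part in all libraries but that at 48 h, with 34.4% there and 57.2% in the parental library. Among the proteases CTSV led at 6 h (46.0% of protease UMIs), CTSB at 48 h (33.9%) and in the parental library (26.4%), and CTSC at 2 months (47.6%) and 4 months (50.5%). LGMN, a target of CST6, held 18.5% in the parental library and 1.16% at 4 months. The parental shares are those of the mixed culture. In its signature-positive cells LGMN was at 14.1 CPM, beside a protease sum of 250 CPM. CTSC led there at 82.3 CPM, ahead of CTSB at 71.7 CPM.

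The second comparison asked for the other 9 genes in cells with and without CST6. CST6 was detected by its own UMIs, so its level defines the groups and is no result, and a cell without a CST6 UMI may still have held the transcript. In the parental culture this split followed the cell classes closely, since 1240 of the 1309 CST6-positive cells were signature-positive. This overlap is not independent of the study's joint choice of CST6 and the other signature genes. Of 8 members tested, 2 were called higher and 1 lower in CST6-positive cells, beside 12.6% and 17.5% of all genes. CTSC was 2.84 times higher (81.3 against 28.6 CPM), CTSV was 2.38 times higher (38.6 against 16.2 CPM), and LGMN was at 0.403 times (15.4 against 38.3 CPM). CSTB (1.09 times) and CST3 (1.08 times) hardly differed in level, and CTSL (0.560 times), CTSB (1.53 times) and CTSD (1.84 times) stayed within 2-fold.

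At 6 h, 0 of 8 members were called in either direction, beside 1.73% of all genes called higher and 2.42% lower. The 208 CST6-free cells were shallower than the 1749 CST6-positive ones (median 5022.5 against 14222 UMIs), and their summed leukocyte markers were at 390 CPM, of which LYZ made 350 CPM, against 28.6 CPM. The count of called members was also 0 in cells of 10000 to 40000 UMIs (1026 against 54 cells) and without cells led by markers of other types (1749 against 203 cells). The values nearest to the limit were those of CTSB (1.81 times) and CTSD (1.79 times).

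At 48 h, 2 of 8 members were called higher and 0 lower, beside 3.04% and 7.03% of all genes. CST3 was at 410 against 194 CPM and CTSB at 145 against 68.6 CPM, both 2.12 times higher in CST6-positive cells. The 123 CST6-free cells had a median of 2806 UMIs against 43108, and their fibroblast markers summed to 380 CPM, with COL1A1 at 311 CPM, against 3.67 CPM. Without the 45 cells in which markers of other types equalled or exceeded the epithelial ones, 0 members were called, but the log2 ratios were nearly as large, at 0.97 for CST3 and 0.98 for CTSB (1.08 and 1.07 with those cells). With CST6 presence read after thinning to 1000 UMIs they were 0.22 and 0.29. That reading placed 760 cells in the CST6-free group, most of which held CST6 UMIs before thinning. Its ratios thus compare other groups of cells, and why they were smaller was not tested.

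At 2 months, 2 of 9 members were called higher and 0 lower, beside 3.14% and 8.38% of all genes. CSTA was 2.24 times higher (99.8 against 44.6 CPM) and CTSC 2.66 times higher (425 against 160 CPM) in CST6-positive cells, while CST3 (1.78 times) and CSTB (1.65 times) stayed within the limit. Depth was alike here, with medians of 22183 and 21669 UMIs. Of the 2169 CST6-free cells 496 were signature-free, so the split was repeated in signature-positive cells.

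Among the 2686 signature-positive cells at 2 months, 0 of 9 members were called higher and 0 lower, beside 0.652% and 0.124% of all genes. Depth was less alike here, with medians of 22351 UMIs in CST6-positive and 18165 UMIs in CST6-free cells. The ratio was 1.70 for CTSC (427 against 250 CPM), 1.55 for CST3 (745 against 481 CPM), 1.42 for CSTB and 1.31 for CSTA. The calls of CSTA and CTSC at 2 months thus did not hold among signature-positive cells, a restriction that left out the signature-free cells and also those with a UMI in only 1 or 2 of the signature genes. CTSB (1.01 times), CTSD (1.15 times) and CTSV (1.17 times) were nearest to equal.

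At 4 months, 0 of 9 members were called in either direction, beside 1.2% of all genes called higher and 0.0651% lower, and the same held for the 4383 signature-positive cells, with 1.2% and 0.0651%. CTSV was just inside the limit at 1.99 times (313 against 157 CPM), and CSTB was at 1.82 times (1156 against 635 CPM). CSTA and CTSD were both 1.61 times, CST3 1.58 times and CTSC 1.34 times higher in CST6-positive cells, and CTSB (1.06 times) and LGMN (1.14 times) were close to equal. The median log2 ratio of the members was 0.66, where that of all genes tested was -0.01. Where CST6 presence was asked of at least 2 UMIs, 2 members were called, and after thinning to 1000 UMIs, 3 were.

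**Figure D3:**
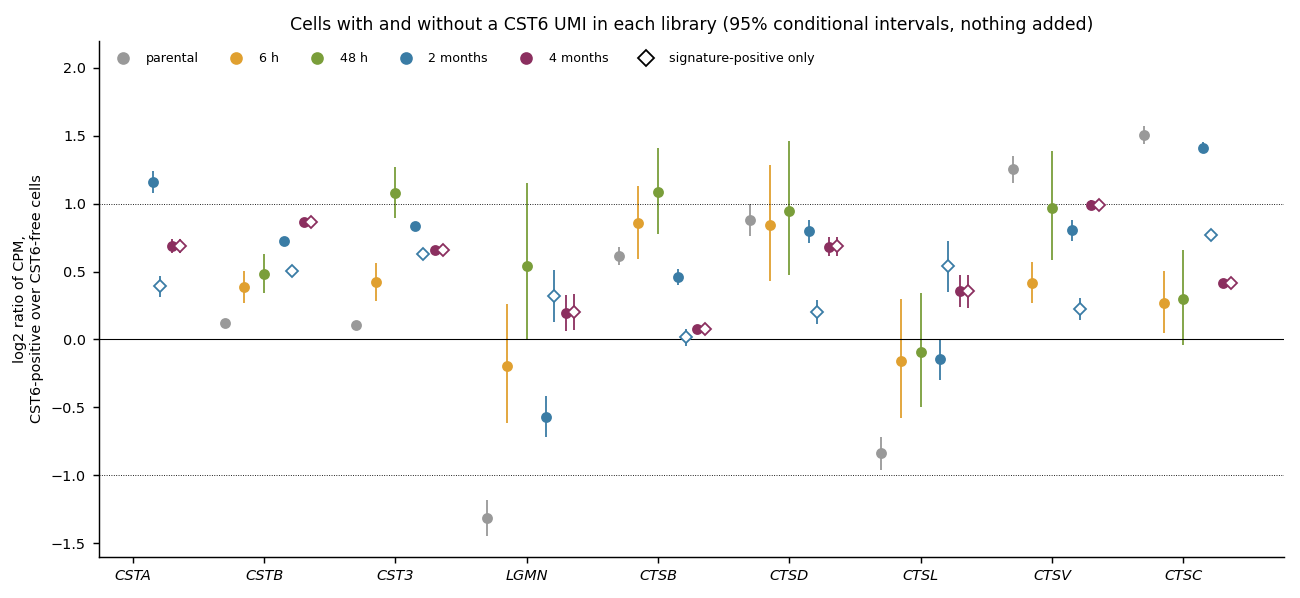
Log2 ratio of CPM with nothing added (vertical axis) between CST6-positive and CST6-free cells for the other 9 genes, by library; filled circles are all cells, open diamonds are signature-positive cells at 2 and 4 months, dotted lines are the 2-fold limits and bars are 95% counting intervals. LGMN lay under the lower limit in the parental library only, and at 4 months CTSV lay just inside the upper limit.

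A split at 1 UMI mixes cells with none and cells with little CST6, so signature-positive cells of 10000 to 40000 UMIs were also grouped by their CST6 count. At 4 months there were 1536 cells with 0 CST6 UMIs, 439 with 1, 466 with 2 to 4 and 533 with 5 or more. CSTB was at 660, 843, 1040 and 1865 CPM over these groups and CST3 at 406, 506, 622 and 983 CPM, so both secreted and intracellular inhibitors were higher in each further group. CTSV was at 172, 195, 256 and 644 CPM, CSTA at 93.2, 109, 121 and 268 CPM and CTSC at 630, 727, 823 and 1027 CPM. CTSB rose less than these, at 310, 318, 347 and 366 CPM. In contrast, LGMN stayed between 14.1 and 16.8 CPM with no steady order.

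At 2 months the groups held 1164, 393, 298 and 163 cells. CTSC was at 249, 342, 396 and 826 CPM, CST3 at 471, 598, 792 and 1249 CPM and CSTB at 643, 816, 961 and 1297 CPM. CSTA went from 77.1 to 157 CPM between the lowest and highest group and CTSL from 13.4 to 36.8 CPM, whereas CTSV was at 82.3, 91.6, 76.9 and 128 CPM with no steady order. In the parental culture, where only 26 such cells had no CST6 UMI, CSTB spanned 440 to 523 CPM and LGMN 12.2 to 13.9 CPM, while CTSC was at 51.1, 46.4, 68.2 and 85.8 CPM and CTSV at 25.6, 19.9, 30.4 and 42.1 CPM.

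The early libraries had few cells without CST6, and some members were highest in the group with the most CST6 there too. At 6 h the groups held 53, 67, 238 and 721 cells, with CST3 at 252, 273, 295 and 377 CPM and CSTB at 306, 278, 408 and 511 CPM. At 48 h they held 26, 22, 73 and 304 cells, with CST3 at 215, 356, 396 and 430 CPM and CTSB at 46.7, 87.4, 101 and 147 CPM. The CST3 level was thus higher in each further CST6 group in all 4 lung libraries, though not in the culture (339, 284, 309 and 320 CPM). At 6 h, however, the intervals of neighbouring groups overlapped up to the group with 2 to 4 CST6 UMIs. At 48 h they overlapped from the group with 1 CST6 UMI upward, so these steps were not separated from counting error. Median depth rose over the groups at 6 h (14249, 15027, 17435 and 22953 UMIs) and in the culture (16912, 18923, 21516 and 26315.5 UMIs). In these libraries an order by CST6 count cannot be told apart from an order by depth. Each order concerns cells of 1 library, and no interval between mice could be given.

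**Figure D4:**
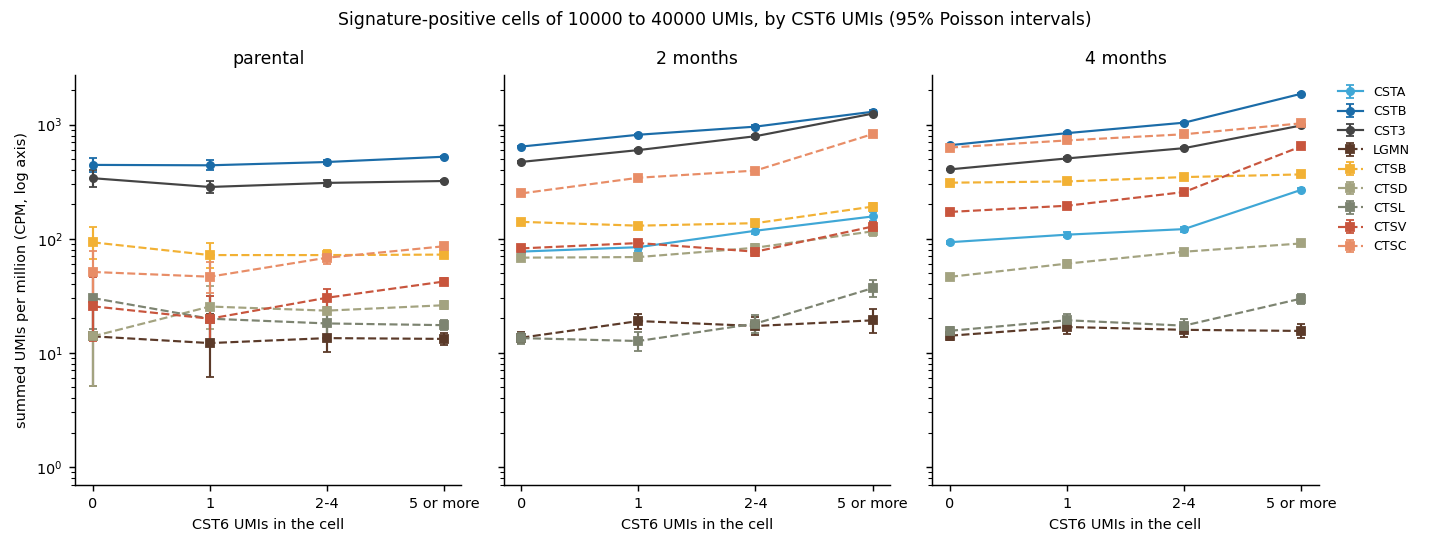
Level (CPM, log axis) of the other 9 genes in signature-positive cells of 10000 to 40000 UMIs, grouped by CST6 UMIs per cell (0, 1, 2 to 4, 5 or more; horizontal axis), with 1 panel each for the parental, 2-month and 4-month libraries, 95% Poisson intervals, and CSTA left out of the parental panel for its few UMIs. At 4 months CSTB went from 660 to 1865 CPM and CTSV from 172 to 644 CPM over the groups, while LGMN stayed between 14.1 and 16.8 CPM.

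To compare detection at equal depth, signature-positive cells were thinned to 3000 UMIs each, shallower cells left out. CST6 presence was also read after this thinning, so the groups differ from those above. Before thinning, 2418 signature-positive cells at 4 months and 1541 at 2 months had no CST6 UMI. The CST6-free groups here are larger, since they also hold cells whose CST6 UMIs were not drawn. At 4 months CSTA was detected in 39.1% (35.6 to 42.7) of 752 CST6-positive cells and 22.5% (21.1 to 23.9) of 3455 CST6-free cells, and CTSV in 54.4% (50.8 to 58.0) and 35.98% (34.4 to 37.6). CTSC was closer, with 68.8% and 65.0%. At 2 months, with 411 and 2224 cells, CST3 was detected in 86.6% (82.9 to 89.8) and 74.3% (72.5 to 76.1) and CTSD in 32.1% (27.6 to 36.9) and 21.1% (19.4 to 22.8), whereas the CSTA shares were 22.1% (18.2 to 26.5) and 18.5% (16.9 to 20.2). These intervals cover counting error within 1 library, and cells of a library are not replicates, so they do not show that such a difference would hold between mice.

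Protease UMIs per inhibitor UMI went down with CST6 at 4 months, from 1.01 (0.999 to 1.019) in CST6-free to 0.704 (0.698 to 0.710) in CST6-positive cells. Both totals were higher in the CST6-positive cells, proteases at 1533 against 1134 CPM and inhibitors other than CST6 at 1930 against 1124 CPM. Among signature-positive cells at 2 months the ratio was 0.464 without and 0.403 with CST6. Over all cells at 2 months it did not go down, at 0.397 (0.390 to 0.403) without and 0.402 (0.396 to 0.408) with CST6. In the parental library it was 0.230 without and 0.205 with CST6, at 6 h 0.767 and 0.518, and at 48 h 0.495 and 0.312. CST6 UMIs are themselves part of the inhibitor count, which lowers the ratio in the positive group by construction. With CST6 left out, inhibitors in CST6-positive against CST6-free parental cells were at 828 against 765 CPM, and proteases at 249 against 176 CPM. At 6 h these were 863 against 653 and 678 against 501 CPM. At 48 h they were 876 against 527 and 427 against 261 CPM. The lower ratio in the parental library and at 6 h thus rested on the CST6 UMIs alone, and at 48 h nearly so.

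Other genes of the pathway were read from lists of names. Of 13 further cystatin-family genes, none reached 5 CPM in any library, and FETUB was the most abundant at 2 months with 4.62 CPM, so CSTB, CST3, CST6 and CSTA held almost all cystatin UMIs. It was tested in the CST6 split at 2 months and not called. Of 11 further cathepsins 4 at most were tested in a comparison, with 1 called higher and 2 lower at 6 h against the parental library, 2 higher and 1 lower from 48 h to 2 months, and 0 higher and 1 lower from 2 to 4 months. Of 2 tested, 1 was called higher and 0 lower both at 6 h against parental signature-positive cells and from 6 h to 48 h. Such small numbers were not read against the shares of all genes given above for each step. CTSA, a carboxypeptidase that protects lysosomal enzymes, was at 29.2 CPM in the parental library, 63.2 at 6 h with 131 at 48 h, then 53.0 at 2 months and 80.8 at 4 months. CTSH, an aminopeptidase, was at 16.9 CPM in the parental library and 8.10 CPM at 2 months, and under 1 CPM in the other libraries. CTSZ stayed between 8.97 and 18.6 CPM.

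The 23 lysosomal genes on the list (enzymes, membrane proteins and proton pump subunits) were called in both directions. At 6 h against the parental library 5 were called higher and 2 lower of 23 tested, beside 17.2% and 27.8% of all genes, and against parental signature-positive cells 1 higher and 0 lower of 22, beside 10.6% and 12.1%. From 6 h to 48 h 0 of 22 were called, beside 3.24% of all genes called higher and 1.42% lower. From 48 h to 2 months 0 of 23 were called higher and 5 lower, beside 12.2% and 13%. From 2 to 4 months 1 of 23 was called in each direction, beside 3.03% and 9.38%. NPC2, a cholesterol carrier, was at 221, 681, 674, 281 and 661 CPM from parental to 4 months, and GLA, the alpha-galactosidase, at 148, 39.1, 39.5, 63.5 and 25.5 CPM. Within signature-positive cells the CST6 split called 0 of 23 at 2 months, beside 0.652% of all genes higher and 0.124% lower. At 4 months it called 0, beside 1.2% and 0.0651%. Of the 6 genes for sorting to the lysosome, 2 were called lower at 6 h against the parental library, where 27.8% of all genes were, and 0 against parental signature-positive cells or in the later steps.

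Among other protease inhibitors of squamous cells, all 7 tested were called higher at 6 h against the parental library, beside 17.2% of all genes, and 5 of 7 against parental signature-positive cells, beside 10.6%. From 6 h to 48 h 0 of 7 were called higher and 2 lower, beside 3.24% and 1.42% of all genes. From 48 h to 2 months 5 of 9 were called higher and 2 lower, beside 12.2% and 13%. SLPI, which inhibits neutrophil serine proteases, was at 0.181, 8.27, 0.171, 280 and 482 CPM from parental to 4 months, and SERPINB5 (maspin) at 3.97, 182, 103, 79.5 and 126 CPM. SPINK5, the inhibitor of epidermal kallikreins, was at 1.04, 8.05, 8.70, 177 and 101 CPM. SLPI and SPINK5 thus shared with CSTA a level at 2 and 4 months well above that of the earlier libraries. The list as a whole did not share this course. SPINT2, its most abundant gene, was at 207, 999, 1063, 517 and 684 CPM from parental to 4 months. SPINT1, SERPINB1 and SERPINB5 were also lower at 2 months than at 48 h.

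Genes of cornification were called higher in CST6-positive cells in each library, with some exceptions. The counts were 2 higher and 1 lower of 3 tested in the parental library, beside 12.6% and 17.5% of all genes, 4 higher and 0 lower of 6 at 6 h, beside 1.73% and 2.42%, and 2 higher and 1 lower of 5 at 48 h, beside 3.04% and 7.03%. Among signature-positive cells 5 of 6 were called higher at 2 months, beside 0.652% of all genes, and 7 of 7 at 4 months, beside 1.2%, with 0 called lower. At 4 months SPRR1B, a cornified envelope precursor, was at 590 CPM with and 110 CPM without CST6, FLG (filaggrin) at 137 and 15.1 CPM and IVL (involucrin) at 109 and 22.4 CPM. SPINK5, from the list of other protease inhibitors, went the same way (201 against 11.8 CPM). Of that list, among signature-positive cells, 4 of 9 were called higher at 4 months and 2 of 9 at 2 months, with 0 lower. Over all cells 4 of 5 were called higher and 0 lower in the parental library. At 6 h 0 of 7 were higher and 2 lower, and at 48 h 0 of 5 higher and 1 lower. The shares of all genes are those given above for each split. At 2 months FLG was at 154 and 17.4 CPM and SPRR3 at 89.9 and 4.18 CPM in signature-positive cells. These ratios exceeded those of each of the 9 cystatin and cathepsin members in the same split, the largest of which was that of CTSV at 4 months, 1.99 times.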

How the data were processed

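The authors deposited, for each of the 5 libraries, a filtered matrix of UMI counts per gene and cell, without normalization. The submitters' processing notes list Cell Ranger 3 and GRCh38, and the matrix headers give software version 3.0.2. No column was left unassigned to a sample. Counts were summed over cells of a group and divided by the group's total UMIs (CPM). The interval of a member's level at 5 CPM or more reached 0.591% to 6.75% of the level to either side. Poisson and Clopper-Pearson exact intervals (95%) cover counting error only, and a count of 0 was read as up to 3 counts. Doublets were not removed. With 1 library per timepoint no p-value was computed and cells were not used as replicates. A call needed a 2-fold ratio with 1 CPM added and 5 CPM in either group. Member ratios without added CPM are given with conditional exact intervals, and CPM values rest on all UMIs of human genes. Other settings tried were 5 CPM added, a minimum of 20 CPM, median-of-ratios scaling, no quality filter, at most 10% mitochondrial UMIs, equal weight of cells, cells of 10000 to 40000 UMIs, leaving out cells led by markers of other types, limits of 1.5-fold and 3-fold, and other cut-offs of CST6 presence and of the signature. Listed genes of other pathways were named where they were among the 4 largest ratios per direction past 2-fold with at least 50 CPM in either group. The other values named are of cathepsins, lysosomal genes and marker genes chosen with their values seen. The members and lists were chosen with earlier results of these data known, and some single genes are left out. The calling step was tested on simulated data for 2 of the 12 comparisons, with ratios well past the 2-fold limit only. Transcripts of paralogs were aligned from the GENCODE 44 annotation of GRCh38. The analysis used Python 3.11.15, numpy 2.4.6, scipy 1.17.1, pandas 2.3.3 and matplotlib 3.10.9.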

Additional observations from a re-analysis of the deposited data

How the results depend on the processing

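No paired analysis was possible because each timepoint had 1 library and no test was made. Of the 22 member ratios called, all 22 kept their direction under each of the 8 settings applied to all of them, and they stayed past 2-fold in 22 under median-of-ratios scaling, 22 at a minimum of 20 CPM, 22 without the quality filter, 21 with 5 CPM added, 21 at 10% mitochondrial UMIs, 20 with equal weight of cells, 20 without cells led by markers of other types and 19 in cells of 10000 to 40000 UMIs. The 7 that came from CST6 splits also kept their direction under both other readings of CST6 presence, with 7 past 2-fold from 2 UMIs and 4 after thinning to 1000 UMIs. Median-of-ratios scaling shifted log2 ratios by between -0.24 and 0.13, depending on the comparison. The cause of the changes below was not tested.

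Counts of members past the limit that moved are given with the count under the main setting first, but some moves by 1 gene are left out. Among those left out, CTSB was not past 3-fold at 6 h against the parental library. At 1.5-fold CTSL was past the limit at 2 months against 48 h, and CSTA at 4 against 2 months. At 6 h against parental signature-positive cells (2) the count was 1 with 5 CPM added, 1 in cells of 10000 to 40000 UMIs, 4 at 1.5-fold and 1 at 3-fold. At 48 h against 6 h (1) it was 2 with equal weight and 2 at 1.5-fold, and at 4 against 2 months (4) it was 1 at 3-fold. For the CST6 split in the parental library (3) it was 6 at 1.5-fold and 0 at 3-fold, and at 6 h (0) it was 1 without the quality filter and 2 at 1.5-fold. For the split at 48 h (2) it was 4 under median-of-ratios scaling, 6 without the filter, 1 at 10% mitochondrial UMIs, 5 with equal weight, 0 without cells led by other markers, 4 at 1.5-fold, 0 at 3-fold and 0 with CST6 presence read after thinning. For the split at 2 months (2) it was 1 with equal weight, 1 in cells of 10000 to 40000 UMIs, 6 at 1.5-fold and 0 at 3-fold. For the split at 4 months (0) it was 1 each under median-of-ratios scaling, 10% mitochondrial UMIs, equal weight and 10000 to 40000 UMIs, 5 at 1.5-fold, 2 from 2 CST6 UMIs and 3 after thinning. In signature-positive cells (0 in both) it was 2 at 1.5-fold, 1 from 2 CST6 UMIs and 1 after thinning at 2 months, and at 4 months 1 each at 10% mitochondrial UMIs, equal weight and 10000 to 40000 UMIs, 5 at 1.5-fold, 2 from 2 CST6 UMIs and 3 after thinning. Protease UMIs per inhibitor UMI moved with equal weight to 0.232 (parental), 0.490 (6 h), 0.407 (2 months) and 0.792 (4 months), without the filter to 0.325 (48 h), 0.408 (2 months) and 0.837 (4 months), and at 10% mitochondrial UMIs to 0.392 (2 months) and 0.807 (4 months), with the order of the libraries kept. At 6 h and 48 h the CST6-free groups were small and shallow, which widens their counting intervals.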

Other observations

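Genes whose level over the 5 libraries was most like that of each member were ranked by Pearson correlation of log2(CPM + 1) among 3696 genes at 50 CPM or more in a library. With 5 points that share their libraries, such values are a description only. CST6 was most like PXN, VOPP1 and MGLL, and 203 genes reached a correlation of 0.95 with it. CSTA was most like DEFB1, S100A7 and IFI27, CTSC most like LY6D, RGCC and CEBPD, and CSTB most like SBSN, GJB6 and ID1. CTSV had the fewest genes at 0.95 or more, with 12, led by ATP6V1G1, NPM1 and ETHE1.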
